A study of Mus musculus with 4 samples.

Results

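The peaks described here are the CTCF binding regions on the distal end of mouse chromosome 4. They were chosen by position alone: every peak of the deposited list (genome build mm9) on chromosome 4 whose midpoint lay at 115000000 or beyond. The rule gave 946 of the 15109 peaks in the list, or 6.26%, and 74.4% of the 1271 peaks on the chromosome. The other 325 peaks of chromosome 4, below that boundary, served as the comparison. The study used hippocampus of C57/Bl mice. Chromatin was immunoprecipitated with a Millipore antibody to CTCF in 2 libraries, and 2 input libraries of the same tissue carried no immunoprecipitation. No genotype, treatment, age or sex of the mice was given in the labels used here. The sample labels name 2 inputs, whereas the series text counts 1. The name in the list's header joins ChIP 1 and 2 with input 1 and 2 into 1 list, so the values below carry no replicate error and none was tested against chance. The intervals given are 95% intervals that cover counting error only, and the number of reads behind a peak is unknown.

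The CTCF protein reads a long DNA motif with an array of zinc fingers. It stops cohesin as it extrudes DNA, so that pairs of CTCF sites often mark the feet of chromatin loops and the borders of domains. Many of its sites are shared between tissues, and others lie near promoters and enhancers that are used in particular cell types. In neurons CTCF is known to be needed for the normal expression of many genes of synapses and of learning.

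The distal end of chromosome 4 is conserved with the short arm of human chromosome 1 and carries many well-studied genes. A set of 36 landmark genes was placed in order with the RefSeq gene table of build GRCm38.p6, in which all 36 lie on chromosome 4. That build is not the one of the peaks, so the table was used for order only and no peak was given a gene. Towards the centromere the order starts with Slc2a1, the glucose transporter of the blood-brain barrier, followed by the POU factor gene Pou3f1 and by Grik3, which encodes a kainate receptor subunit. Hdac1, a histone deacetylase, and Lck, a kinase of T cell receptor signalling, come next and are neighbours in this set. They are followed by Arid1a, a subunit of the BAF chromatin remodelling complex, the kinase gene Rps6ka1, and Stmn1, which encodes the microtubule regulator stathmin. Runx3, Id3 and E2f2 encode transcription regulators, Epha8 an ephrin receptor, Wnt4 a secreted signal, Cdc42 a small GTPase and Hspg2 the matrix protein perlecan. Pax7, Sdhb, Epha2, Spen and Casp9 follow, and then Mfn2, which encodes a mitochondrial fusion protein. The natriuretic peptide genes Nppb and Nppa lie beyond it, with the growth kinase gene Mtor and the axonal kinesin gene Kif1b. The order ends with Eno1, Rere, Park7, the clock gene Per3, Camta1, the neuronal chromatin remodeller gene Chd5, Prdm16, Ski, the GABA-A receptor subunit gene Gabrd, Gnb1 and Agrn, the gene of the synapse organiser agrin.

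Of the 1328 protein-coding genes that the table lists on chromosome 4, 588 (44.3%) lie from Slc2a1 onwards. Slc2a1 is not the boundary used for the peaks, so this share describes gene order only. Between Casp9 and Mfn2 the table lists 68 protein-coding genes, 20 of which are named Pramel, 16 Zfp and 7 Aadacl, families that form tandem clusters there. This interval was picked after the peak counts had been seen, and it was not placed on mm9.

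CTCF peaks were far denser on the distal end than on the rest of chromosome 4. The distal peaks ran from 115532003 to 155629538, and the boundary to the last peak end measured 40.6 Mb. This was 27.1% of the 150 Mb between the first and the last peak of the chromosome. It held 23.3 peaks per Mb (exact Poisson interval 21.8 to 24.8), against 2.97 per Mb (2.66 to 3.32) below the boundary. The ratio was 7.83 (exact conditional interval 6.89 to 8.91). Peaks covered 534 kb, or 1.31% of the distal sequence, and 0.157% of the sequence below the boundary. The boundary itself fell in a sparse stretch. The last 2 peaks below it, at 111105656 and 114282400, scored 83 and 55, and the first 2 beyond it, at 115532003 and 115550440, scored 121 and 109.

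**Figure D1:**
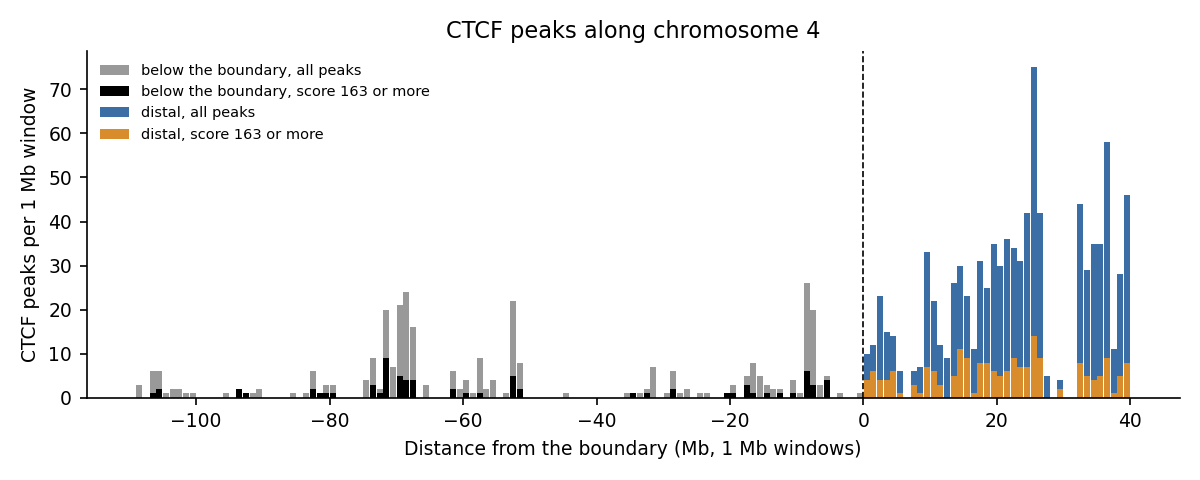
CTCF peaks per 1 Mb window (vertical axis, count) along chromosome 4, by distance from the boundary in Mb (horizontal axis). Grey bars are windows below the boundary and blue bars distal windows, and the black and orange parts at their feet are the peaks scoring 163 or more. The highest distal bar holds 75 peaks and the highest bar below the boundary 26.

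The higher density held for weak and strong peaks. The authors' peak score is a whole number per peak whose scaling is not stated in the file, so strong and weak here mean high and low by this score within the list. Among peaks scoring under 62, the lower quartile of the whole list, distal density was 8.28 times that below the boundary (6.38 to 10.8). Among scores from 163, the upper quartile, up to the 95th percentile, it was 7.53 times as high (5.58 to 10.3). In the class of 569 and more it was 6.15 times as high (3.19 to 12.5), from 32 distal and 14 other peaks. The ratio was lower in each higher class, but the intervals of the classes overlap widely.

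Within the distal end the counts were uneven. The 40 full 1 Mb windows held 23.4 ± 17.1 peaks (mean ± SD over windows), with a median of 24 and quartiles of 9.75 and 34.3. Below the boundary 109 windows held 2.97 ± 5.36, with a median of 1. Over 30 peaks were found in 14 distal windows and in 0 of the others. At least 20 peaks were found in 23 of the 40 distal windows and in 6 of the 109 others. Windows with no peak numbered 4 on the distal end and 43 below it.

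The fullest distal window, from 140000001 to 141000000, held 75 peaks, and the second, from 151000001 to 152000000, held 58. The next were those starting at 154000001 with 46, at 147000001 with 44, and at 139000001 and 141000001 with 42 each. The window from 136000001 held 36, and those from 134000001, 149000001 and 150000001 held 35 each. The 10 fullest of the 40 windows together carried 47.9% of the peaks in full distal windows. Below the boundary the 10 fullest of 109 windows carried 54.0%. Each of the 10 windows between 132000001 and 142000000 held at least 25 peaks, so that the fullest window lay in a long dense block.

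The 75 peaks of the fullest window were not spread evenly inside it. Its bin of 100 kb from 140100001 held 15 peaks, the most of any such bin on the distal end. The bin from 140600001 held 13 and that from 140300001 held 11, whereas the bin from 140700001 held 2. Another peak midpoint lay within 10 kb of 64 of the 75. Their median width was 506 bp and they covered 48.1 kb in all. Scores of 163 or more were held by 14 of them, or 18.7%, against 21.1% of all distal peaks and 25.4% of the list. The strongest, at 140234950 to 140236465, scored 1352. The window from 151000001 was similar, with another peak within 10 kb of 45 of its 58 and a highest score of 699. Outside these 2 windows, the fullest bins were those from 149000001 with 12 peaks and from 132900001 and 141400001 with 11 each. None of the 11 peaks in the bin from 132900001 scored 163 or more, but 11 peaks are too few to set against the share of 21.1%. At least 5 peaks in a 100 kb bin occurred 66 times on the distal end, which held 406 full bins. Below the boundary this occurred 8 times, over a longer span of 109 Mb.

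A pair of sparse gaps broke the distal block. Only 9 peaks lay between 142000001 and 147000000, in the windows from 142000001 with 5 and from 144000001 with 4. The windows from 143000001, 145000001 and 146000001 held none. The longest stretch without a peak on the distal end, 2.43 Mb from 144810129 to 147242320, ended next to a window of 44 peaks. A stretch of 1.61 Mb from 142889556 preceded it. The other gap, 1.74 Mb from 120770807 to 122513346, emptied the window from 121000001. After these 3 stretches the longest were 629 kb from 142260350 and 530 kb from 127133500. Stretches above 1 Mb made up 14.2% of the distal span. Below the boundary 28 such stretches made up 64.3%, the longest of them 9.44 Mb. The stretch that crosses the boundary, between the peaks at 114282400 and 115532003, was counted there and left out of the distal stretches. An empty stretch shows only that no peak was called there.

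The distal end was strongest, by score, at a single peak from 134033251 to 134035709. This peak was 2459 bp wide, scored 3590 and ranked 3 in the whole list. Its nearest neighbour was a weak one, 4.62 kb away with a score of 24. The second, at 128601602 to 128602975, scored 1856, and the peak nearest to it, 2.54 kb away, scored 37. The third, at 128789407 to 128791004, scored 1474 and stood alone, with 91.3 kb free before it and 118 kb after it. Both of these lay in the window from 128000001, which held 26 peaks.

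The next strongest peaks were spread along the distal end. The peaks at 130434024 to 130435070 and 130808407 to 130809838 scored 1431 and 1209, in a window of 23 peaks. The peak at 137231431 to 137232497 scored 1385 and the one at 124391594 to 124392838 scored 1170. In the fullest window the strong peaks at 140234950 and 140828815, with scores of 1352 and 1337, each had weak peaks close by. The second of these was 2291 bp wide and had a peak on each side, with 0.275 kb and 0.335 kb between them. Towards the chromosome end the strongest were those at 150513377 to 150514258, with a score of 1315, and at 147475891 to 147476936, with 1068. The peaks at 132853480 and 129605474 scored 1120 and 1007.

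The 20 strongest distal peaks scored from 705 to 3590 and were 601 to 2459 bp wide, with a median of 1177 bp. They were spread over 14 windows. The remaining ones, not yet named, started at 124836604, 116818236, 139414302, 140676475, 136943693, 132611173 and 117540070, with scores of 982, 781, 777, 756, 746, 728 and 705. A neighbour within 10 kb was found for 12 of the 20, near the share of 58.4% among all distal peaks (42.9% in the whole list). Next to the peak at 132853480 this nearest peak scored 263, and in the other cases it scored under 163. Among all distal peaks 21.1% scored 163 or more, and 12 neighbours are too few to set against that share. Scores of 705 or more were held by these 20 of the 946 distal peaks and by 12 of the 325 below the boundary. In the whole list 502 of the 15109 peaks scored as high, so the share was lowest on the distal end. This was not tested. Those below the boundary were led by the peak at 43994553 to 43995837 with 2421.

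**Figure D2:**
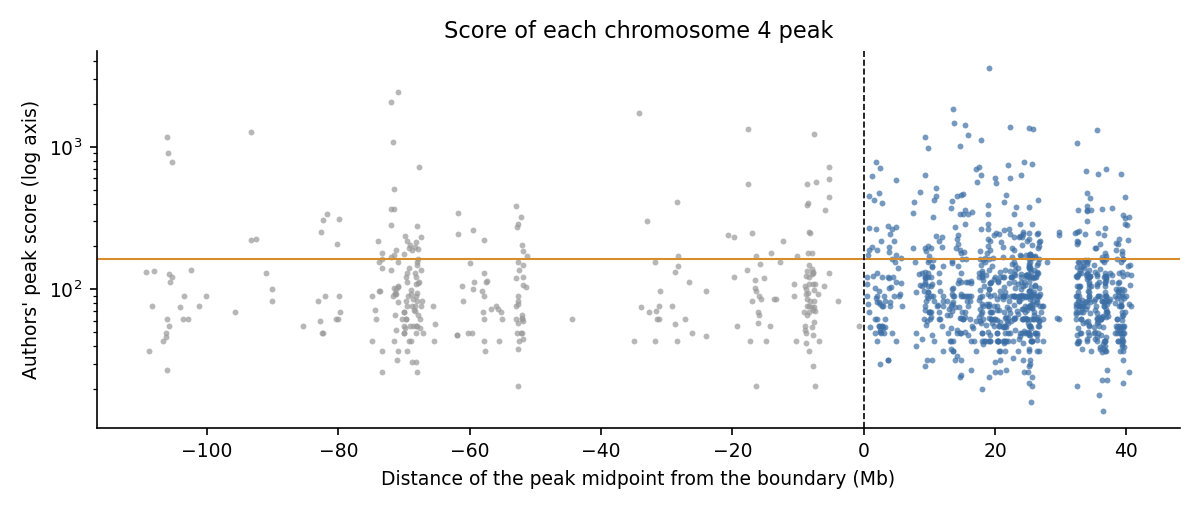
The authors' score of each chromosome 4 peak (vertical log axis) by the distance of its midpoint from the boundary in Mb (horizontal axis). Points are single peaks, grey below the boundary and blue beyond it, and the orange line marks a score of 163. The highest point is the distal peak with a score of 3590.

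The typical score of distal peaks was that of the rest of chromosome 4. The median was 90 on both sides of the boundary, with an exact interval of 87 to 90 for distal peaks and 83 to 98 for the others. Distal scores had quartiles of 61.3 and 146 and ran from 14 to 3590. Scores of 163 or more were held by 200 distal peaks, or 21.1% (18.6% to 23.9%), and by 22.8% (18.3% to 27.7%) of those below the boundary, against 25.4% of the whole list. On the other autosomes the share was 25.5% (24.8% to 26.2%), and its interval did not overlap that of the distal peaks. Scores of 569 or more were held by 32 distal peaks, or 3.38% (2.33% to 4.74%), against 5.0% of the list and 5.12% (4.76% to 5.51%) on the other autosomes.

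The share of strong peaks differed along the distal end. Between 115000001 and 120000000 it was 24 of 74 peaks, or 32.4% (22.0% to 44.3%). It was 25.6% (18.2% to 34.2%) between 130000001 and 135000000, 19.7% (14.0% to 26.4%) between 135000001 and 140000000, and 15.7% (10.7% to 21.9%) between 150000001 and 155000000. The first and the last of these shares were the highest and the lowest of the full sections, and their intervals barely miss each other. Density went the other way over these 4 sections, with 14.8, 25, 34.6 and 35.6 peaks per Mb. The other sections of 5 Mb had shares of 25.3% from 125000001, 19.8% from 140000001 and 15.7% from 145000001, at 19.8, 25.2 and 21.6 peaks per Mb. The full section with the fewest peaks, from 120000001 to 125000000, had 10.4 per Mb, and 23.1% of its peaks scored 163 or more (12.5% to 36.8%). Over all full sections the share therefore did not fall steadily with density. It was 23.1% at 10.4 per Mb and 15.7% at 21.6 per Mb, but 25.6% at 25 per Mb.

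The share of strong peaks was lowest in the fullest distal windows, although the intervals of the window classes overlapped. In the 13 windows with 1 to 19 peaks, 26.2% scored 163 or more (18.7% to 34.97%). In the 13 windows with 20 to 34 peaks the share was 24.4% (20.1% to 29.1%), and in the 10 windows with 35 or more it was 17.0% (13.6% to 20.8%). The interval of the fullest class overlapped those of both other distal classes. The classes of window were set after the counts had been seen. On the other autosomes the same classes gave 25.9%, 25.1% and 24.7% (22.8% to 26.6%), the last from 45 windows. In the fullest class the interval of the distal peaks therefore lay below that of the other autosomes pooled. Taken singly, 12 autosomes had such windows, and chromosome 4 had the lowest share. Chromosome 17 followed with 20% (14.6% to 26.4%) and chromosome 5 had 22.6% (18.0% to 27.8%), both with intervals that overlap the one of chromosome 4. The intervals of 8 of the 11 other autosomes overlapped it, and those of 3, chromosomes 11, 7 and 10, did not. On chromosome 11 the share was 26.6% (22.2% to 31.3%).

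**Figure D3:**
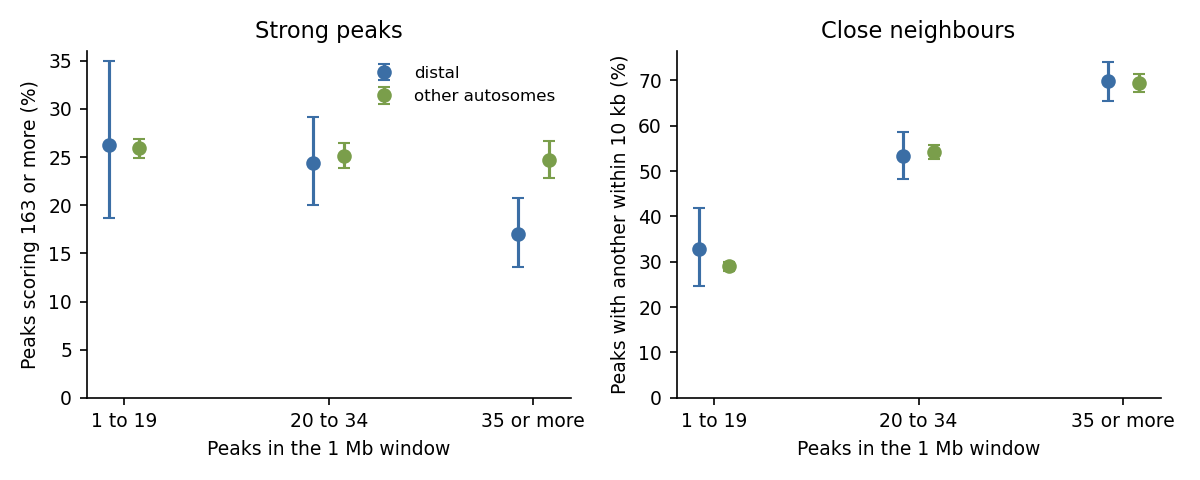
Percentage of peaks scoring 163 or more (left) and with another midpoint within 10 kb (right), by the number of peaks in their 1 Mb window. Points are distal chromosome 4 (blue) and the other autosomes (green), and bars are exact binomial 95% intervals. In windows of 35 or more peaks the left values are 17.0% and 24.7% and the right values 69.9% and 69.5%.

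Widths were similar across the boundary. Distal peaks had a median width of 475 bp (462 to 486), with an upper quartile of 611 bp, and those below the boundary 456 bp (437 to 481). The other autosomes had 473 bp. Peaks wider than 1 kb numbered 66 of the 946, or 6.98% (5.44% to 8.79%), against 5.75% of the list and 5.54% (3.32% to 8.61%) below the boundary. The smallest width in the list, 344 bp, was found in 38 distal peaks, or 4.02% (2.86% to 5.47%), against 3.76% of the list and 2.77% (1.27% to 5.19%) below the boundary. Wider distal peaks tended to score higher, with a rank correlation of 0.58 across the 946 peaks and 0.59 below the boundary. Peaks of 1 list share their libraries, so this is a description only.

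**Figure D4:**
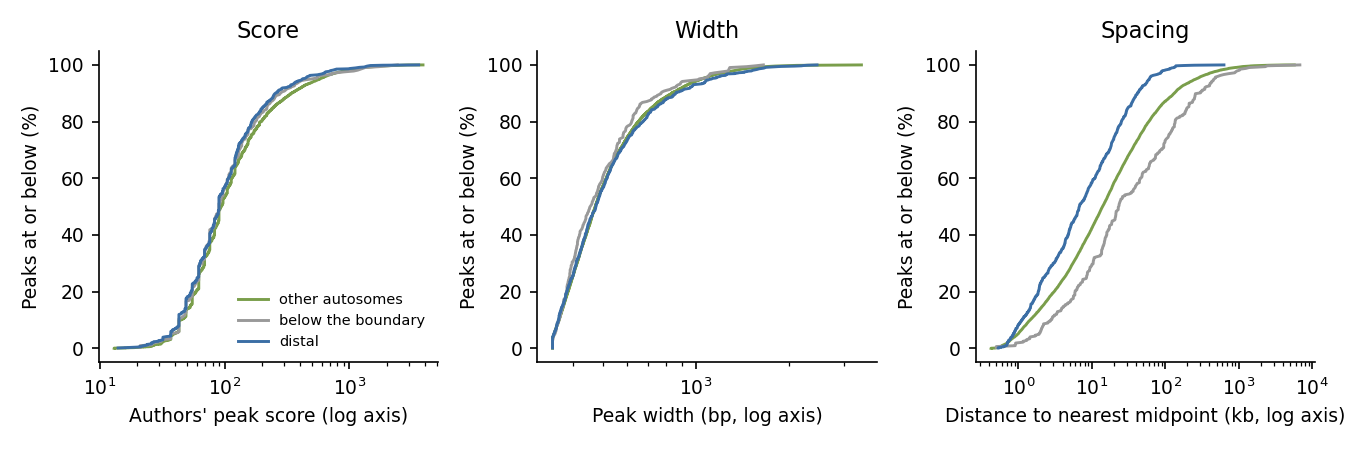
Cumulative percentage of peaks (vertical axes) by score, by width in bp and by distance to the nearest other midpoint in kb (horizontal log axes). Lines are distal chromosome 4 (blue), chromosome 4 below the boundary (grey) and the other autosomes (green). The lines nearly coincide for score and width, whereas the median distance is 6.77 kb, 23.3 kb and 13.98 kb, in that order.

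Distal peaks lay close together. The nearest other midpoint was at a median of 6.77 kb (quartiles 2.27 and 20.7 kb), against 23.3 kb (8.51 and 112 kb) below the boundary. Another midpoint lay within 10 kb of 552 distal peaks, or 58.4% (55.1% to 61.5%), against 42.9% of the list. Below the boundary the share was 29.5% (24.6% to 34.8%). Within 5 kb the shares were 41.9% (38.7% to 45.1%) and 16% (12.2% to 20.4%), with 28.4% in the whole list. Within 50 kb they were 92.7% (90.9% to 94.3%) and 61.8% (56.3% to 67.2%), with 77.1% in the whole list. Peaks with no other midpoint within 100 kb numbered only 17 on the distal end, or 1.80% (1.05% to 2.86%), and 87 below the boundary, or 26.8% (22.0% to 31.9%), with 12.7% in the whole list. The most isolated distal peak, at 142889038 to 142889555 with a score of 155, was 629 kb from the next.

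This closeness moved with how full the windows were. Distal windows with 1 to 19, 20 to 34 and 35 or more peaks had 32.8%, 53.4% and 69.9% (65.4% to 74.1%) of their peaks within 10 kb of another. The same classes on the other autosomes had 29.0%, 54.3% and 69.5% (67.4% to 71.5%). On chromosome 4 itself, the 6 windows below the boundary with at least 20 peaks held between 20 and 26 each. In them 47.4% of peaks (38.7% to 56.2%) had a close neighbour, and in the 5 distal windows of the same counts 43.7% (34.6% to 53.1%). Scores of 163 or more made up 24.1% and 26.9% of the peaks in these 2 sets of windows, with overlapping intervals (17.1% to 32.2% and 19.2% to 35.8%). At like counts the intervals thus overlapped for both measures.

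Having a neighbour within 10 kb went with no difference in the median score of distal peaks. The median was 90 for the 552 with a close neighbour and 90 for the 394 without, and 21.2% and 21.1% of them scored 163 or more. Below the boundary the 96 peaks with a close neighbour had a median score of 83 and the other 229 had 92. Of these, 15.6% and 25.8% scored 163 or more. In the whole list the medians were 90 and 97, and the shares 23.7% and 26.6%. Distal peaks with a close neighbour were 489 bp wide at the median and those without were 454 bp.

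The 200 strong distal peaks were also closer to each other than strong peaks elsewhere on the chromosome. The nearest other peak scoring 163 or more was at a median of 38.1 kb (quartiles 9.75 and 106 kb), against 121 kb (39.2 and 379 kb) for the 74 below the boundary. It was within 10 kb for 52 of the 200, or 26% (20.1% to 32.7%), and for 6 of the 74, or 8.11% (3.03% to 16.8%). Peaks of this score were also 7.09 times as dense on the distal end (5.41 to 9.39), so their closeness is no result apart from density. No share for the strong peaks of the whole list is given here.

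Some neighbours were nearly adjacent. Joining peaks with under 1 kb between them turned the 946 distal peaks into 855 regions, 82 of which held more than 1 peak. These regions took in 18.3% of the distal peaks, against 5.23% below the boundary and 11.6% in the whole list. Of the 74 pairs, 2 joined peaks that both scored 163 or more, 30 had 1 such peak and 42 had none. Among all distal peaks 21.1% scored 163 or more, and the split of the pairs was not tested against that share. The stronger member of a pair had a median score of 151.5 and the weaker 63.5, a gap that follows in part from the sorting within pairs.

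Of the 8 regions of 3 or more peaks, 5 held a peak scoring 163 or more and 3 did not. Among all 82 distal regions that joined peaks, 37 held such a peak, and in the whole list 346 of 830 did. Among single distal peaks the share was 21.1%, and a region with more peaks has more chances to include a strong peak. The 8 regions are too few to set against these counts, and this was not tested. The longest of the 8, from 149021338 to 149026880, held 4 peaks over 5.54 kb with a highest score of 302. The region from 140827285 to 140831947 held 3 peaks, among them the one scoring 1337. In contrast, the 3 peaks from 135510227 to 135512714 all scored 43. The other 5 regions started at 136239645, 139426431, 140669024, 141415374 and 152070880, and their highest scores ran from 83 to 245.

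Among the ends of the autosomes, that of chromosome 4 was the densest, closely followed by chromosome 5. Stretches of the same length, 40.6 Mb back from the last peak of each of the 19 autosomes, held from 60 peaks on chromosome 14 to 946 on chromosome 4. Chromosome 5 had 891 peaks, or 21.9 per Mb (20.5 to 23.4), and its interval overlaps the 21.8 to 24.8 of chromosome 4. Chromosome 11 had 788 peaks, or 19.4 per Mb (18.1 to 20.8), and chromosome 15 had 592. The end stretches of chromosomes 5 and 11 had medians of score of 90 and 94, and 55.3% and 56.5% of their peaks had another within 10 kb, close to the 58.4% of chromosome 4. Scores of 163 or more made up 23.1% and 27.4% there, against 21.1%. This share was lower than on chromosome 4 in 3 of the 18 other end stretches, at 16.7% on chromosome 14, 18.5% on chromosome 19 and 20.4% on chromosome 13. When the fullest run of 41 adjacent windows was taken wherever it lay, that of chromosome 5 held 908 peaks. That of chromosome 4 held 946, the number of its end stretch, so this is no second check for chromosome 4. The common length was set by the chromosome 4 boundary.

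**Figure D5:**
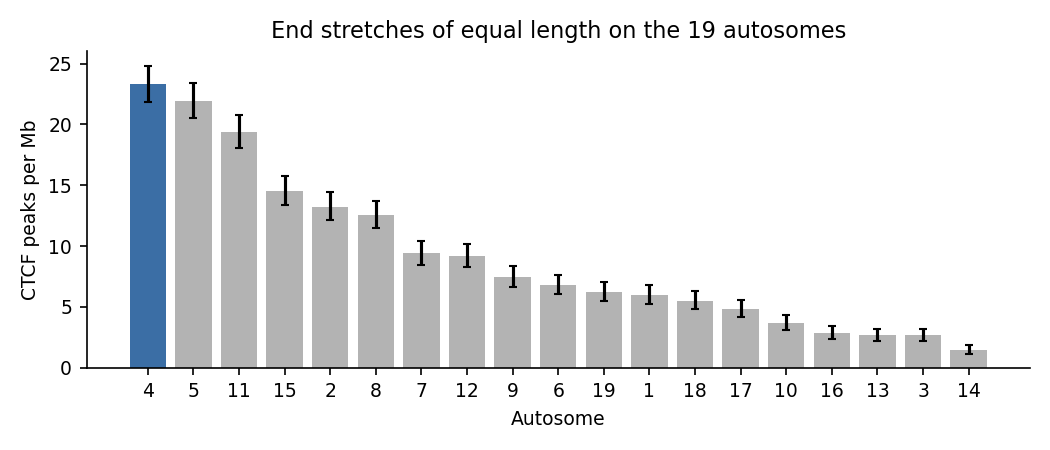
CTCF peaks per Mb (vertical axis) in the last 40.6 Mb before the last peak of each autosome (horizontal axis, in order of density). Bars are densities with exact Poisson 95% intervals, and chromosome 4 is in blue. The bars of chromosomes 4 and 5, at 23.3 and 21.9, have overlapping intervals.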

How the data were processed

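The values are those of 1 peak list deposited by the authors for 2 CTCF ChIP and 2 input libraries combined. The submitters' processing notes name MACS2 (version 2.0.10.20131216), cutadapt and build mm9, and the narrowPeak style is stated per the file headers. The authors deposited a score for each peak with its start and end. For the aligner, the calling threshold and duplicate reads, the steps are not given in the sources used. Starts were converted to positions counted from 1. Midpoints placed peaks in windows. Lengths ran from the first peak start to the boundary and from the boundary to the last peak end. Joined regions kept their highest score. Intervals are exact Poisson, exact binomial (Clopper-Pearson), exact conditional binomial for ratios and order-statistic for medians, computed with scipy 1.17.1. The calculations were tested on simulated lists. No test against chance was run.

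The peaks named were the 20 with the highest score, the 10 fullest and the empty windows, the 5 longest stretches and the joined regions of 3 or more peaks. Bins of 100 kb, window classes and comparisons with other autosomes were added later. The members and lists were chosen with earlier results of these data known. Neither sequence nor annotation of mm9 was used, so no sequence is shown. 1 landmark gene of the planned set is not reported here.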

Additional observations from a re-analysis of the deposited data

How the results depend on the processing

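Of 28 alternatives, 24 left the value inside the interval of the main one or, for counts of windows, within 1.5 times it. For the density ratio this was the exact 95% interval, and for the difference in shares the 95% Newcombe interval. For differences in medians it was the difference plus or minus the longest arm of the 2 medians' 95% intervals. That range is not a 95% interval of the difference. The density ratio of 7.83 fell to 6.71 with the boundary 5 Mb lower and to 5.29 over windows with at least 1 peak. It stayed between 7.01 and 7.48 under the other 4. The difference in the share with a neighbour within 10 kb, 28.8 percentage points, was 17.9 among scores of 163 or more. The difference in median width, 19 bp, was 57.5 bp among those scores (679 against 621.5 bp) and 6 bp with the boundary 5 Mb higher. The causes were not tested. The difference in median score was 0 in all alternatives but 1, where it was -5.5. The fullest window held 65 peaks with windows shifted by 500 kb and 61 after joining. No paired analysis was possible because all libraries were merged into a single list, and no replicate could be left out for that reason. Sequences of named peaks were not analysed here. Read depth is unknown, so the precision of single scores cannot be given.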

Other observations

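Many peaks shared a score. The 946 distal peaks had 273 different scores, and the commonest, 90, was that of 45 peaks and also the median. Below the boundary the 325 peaks had 144 different scores, the commonest being 62 with 18 peaks. Medians of score therefore move in steps.

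The last 0.63 Mb of the distal end, from 155000001 to 155629538, was left out of the full windows. It held 11 peaks, 3 of which scored 163 or more, with a highest score of 321.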
